A study of Saccharomyces cerevisiae with 23 samples.

Results

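SRC1 (YML034W) and PTC7 (YHR076W) are budding yeast genes that each make more than a single protein by alternative handling of their only measured intron. They were chosen by name, as the introns YML034W;1 and YHR076W;1, and make up 2 of the 284 introns in the deposited counts. Both were among the 265 introns that were listed in every library and tested. The study measured splicing in Saccharomyces cerevisiae by multiplexed primer extension sequencing, in which reverse transcription starts from primers placed beside chosen introns, so that a read shows whether the RNA still held the intron. The 23 libraries came from total RNA of BY-background cells grown in minimal medium with 2% D-glucose, either in log phase or in stationary phase at 48 h. The strains were wild type, in sets labelled WTa and WTb, the mutant mud1 and the NAM8 deletion nam8D, with 3 libraries per strain set and condition except WTa in log phase, which had 2. The study's stated aim was to compare splicing between these genotypes in log phase and in nutrient depletion.

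An intron is recognised first at its 5′ splice site by the U1 small nuclear ribonucleoprotein, to which the products of MUD1 and NAM8 both belong, and then at the branch site and the 3′ splice site. SRC1, also called HEH1, encodes a LEM-domain protein of the inner nuclear membrane. Its intron has overlapping alternative 5′ splice sites, and the choice between them decides whether the protein ends with the long C-terminal part, which adds a membrane crossing, or with a short one. PTC7 encodes a type 2C protein phosphatase. Its spliced mRNA gives a mitochondrial enzyme that acts in coenzyme Q synthesis, and the mRNA that keeps the intron is itself translated into a membrane protein of the nuclear envelope. Unspliced RNA is therefore a coding product for PTC7, while for most yeast genes it is not.

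The splice sites explain what the counts can and cannot tell, so the last 8 exon bases and the whole intron of each gene are shown from the R64 reference genome, both on the plus strand. SRC1 lies at chrXIII:211437-211570, with the intron from 211445 to 211570 (126 bases). PTC7 lies at chrVIII:251148-251248, with the intron from 251156 to 251248 (93 bases). Capitals mark, from left to right, the 5′ splice site bases, the window closest to the branch motif TACTAAC, and the final TAG.
SRC1: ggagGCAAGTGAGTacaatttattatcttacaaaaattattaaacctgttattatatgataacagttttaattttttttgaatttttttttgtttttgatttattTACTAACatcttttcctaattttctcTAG
PTC7: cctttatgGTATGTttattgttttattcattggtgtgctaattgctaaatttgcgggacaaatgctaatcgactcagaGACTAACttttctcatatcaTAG

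In SRC1 the annotated site reads GTGAGT, and an overlapping site, GCAAGT, starts 4 bases upstream. Among the 223 tested introns that matched a single annotated intron, GTGAGT was the 5′ site of 2 (SRC1 and RPL20A), and GCAAGT stood 4 bases before the annotated site in 2 (SRC1 and RFA2). PTC7 has the consensus site GTATGT, shared by 174 of the 223. Its closest branch window carries 1 substitution, T1G, counted from the first base of TACTAAC, whereas SRC1 and 187 of the 223 introns (83.9%) hold TACTAAC itself on the transcribed strand. From the end of that window to the end of the intron there were 16 bases in PTC7 and 22 in SRC1.

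The reading frames differ in what a kept intron means. Removing the annotated SRC1 intron gave an open reading frame of 834 codons before the stop, use of the upstream site shifted the frame and gave 687, and a kept intron gave 656, which ends 16 codons past exon 1. The PTC7 intron is a multiple of 3 in length and holds no in-frame stop, so the frame had 343 codons when spliced and 374 when the intron stayed, 31 more. Of the 223 introns, 80 were a multiple of 3 long, and PTC7 alone (0.448%) could be read through in the frame of the upstream exon. The deposited columns are mature and premature counts per intron, and the sources used here do not give whether reads joined at the upstream SRC1 site were counted as mature. For SRC1 the counts therefore describe unspliced against spliced RNA, not the choice between the 5′ sites.

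**Figure D1:**
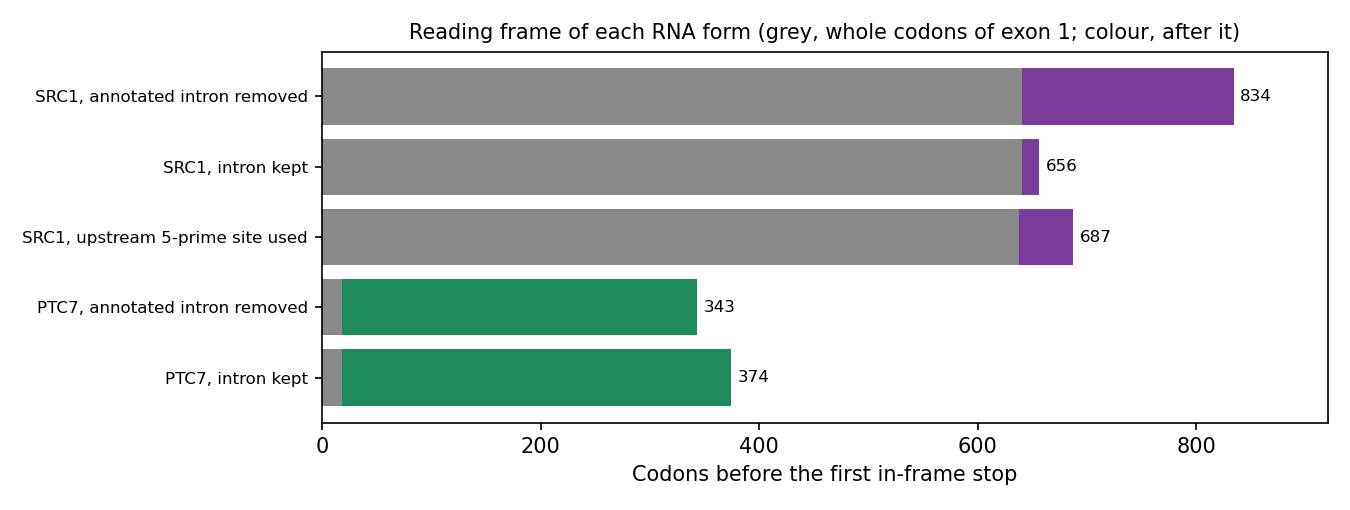
Codons before the first in-frame stop (horizontal axis) for each RNA form of SRC1 and PTC7, computed from the reference genome, with grey for the whole codons of exon 1 and colour for what follows. The kept intron leaves 656 codons in SRC1 and 374 in PTC7, where it is the longer form.

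Library totals ran from 6693650 to 12068685 counts in log phase and from 3343811 to 5910393 at 48 h. SRC1 had between 762 and 3698 counts per library and PTC7 between 446 and 1636. The 95% Wilson intervals of a premature share were at most 6.89 percentage points wide for SRC1 and 9.13 for PTC7, and they cover counting error only. MUD1, whose own intron was measured, was listed in 1 of the 6 mud1 libraries, with 1 mature and 0 premature counts, against 1328 to 5543 mature counts in each of the other 17. NAM8 was not among the introns, so its loss was not checked. WTa and WTb differed from each other, with 30.2% of the tested introns higher in WTb in log phase and 51.3% at 48 h, so each set is given beside their mean. Nothing in the labels shows the replicates to be separate cultures, so p-values measure only the spread among libraries of the same group, which may be technical. The difference between WTa and WTb is not part of that spread, because pooled wild type is tested as the mean of both sets. Each mutant has a single set, so a like difference between sets of a mutant could not be seen.

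Both genes kept their intron in a large share of their RNA in every group. The premature share, the percentage of an intron's counts that were unspliced, was between 21.4% and 77.5% for SRC1 and between 25.3% and 68.1% for PTC7 over the 23 libraries. The median intron had a share between 4.01% and 8.99%, depending on the group. Between 12 and 36 of the 265 introns had a higher mean share than SRC1, and between 15 and 33 a higher one than PTC7. Where ranges of libraries are compared below, how many of all introns separate in the same way was not counted.

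In wild type, SRC1 was spliced more completely at 48 h than in log phase. The WTa shares were 42.9% and 41.8% in log phase and 22.9%, 23.7% and 21.4% at 48 h. The WTb shares were 63.4%, 58.8% and 61.5% in log phase and 45.1%, 46.0% and 46.4% at 48 h. Within each set all 48 h libraries lay below all log-phase libraries, but the pooled ranges overlapped because WTb at 48 h was above WTa in log phase.

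The mud1 shares of SRC1 were 57.9%, 61.2% and 53.2% in log phase and 70.3%, 77.0% and 77.5% at 48 h, without overlap and in the opposite direction to wild type. The nam8D shares were 63.2%, 61.7% and 64.6% in log phase and 54.4%, 70.2% and 63.2% at 48 h, and these overlapped. The mean ± SD was 53.7% ± 10.5 (n = 5) and 34.2% ± 12.7 (n = 6) for pooled wild type in log phase and at 48 h, 57.4% ± 4.02 and 75.0% ± 4.06 (n = 3 each) for mud1, and 63.2% ± 1.48 and 62.6% ± 7.93 (n = 3 each) for nam8D. In log phase the mutants and wild type shared a range. At 48 h every mutant library had a higher share than every wild-type library. In the ratio test given below, 90.6% of all introns were higher in mud1 and 88.3% in nam8D at 48 h.

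PTC7 differed more between each mutant and pooled wild type than between conditions, but its wild-type sets also differed from each other. The WTa shares were 32.5% and 34.6% in log phase and 27.5%, 26.3% and 25.3% at 48 h. The WTb shares were 48.2%, 48.9% and 49.0% in log phase and 51.4%, 40.3% and 47.8% at 48 h. WTa was lower at 48 h in every library, and WTb overlapped between conditions.

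The mud1 shares of PTC7 were 60.7%, 65.2% and 66.3% in log phase and 68.1%, 63.6% and 64.1% at 48 h, which overlapped. The nam8D shares were 55.7%, 55.2% and 53.6% in log phase and 57.6%, 60.7% and 63.1% at 48 h, which did not. In both conditions all libraries of both mutants were above all wild-type libraries of that condition. In the ratio test given below, 47.9% of all introns were higher in mud1 and 29.4% in nam8D in log phase. At 48 h these were 90.6% and 88.3%. The means ± SD were 42.7% ± 8.35 (n = 5) and 36.4% ± 11.6 (n = 6) for pooled wild type in log phase and at 48 h, 64.1% ± 2.95 and 65.3% ± 2.47 (n = 3 each) for mud1, and 54.9% ± 1.10 and 60.5% ± 2.75 (n = 3 each) for nam8D.

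**Figure D2:**
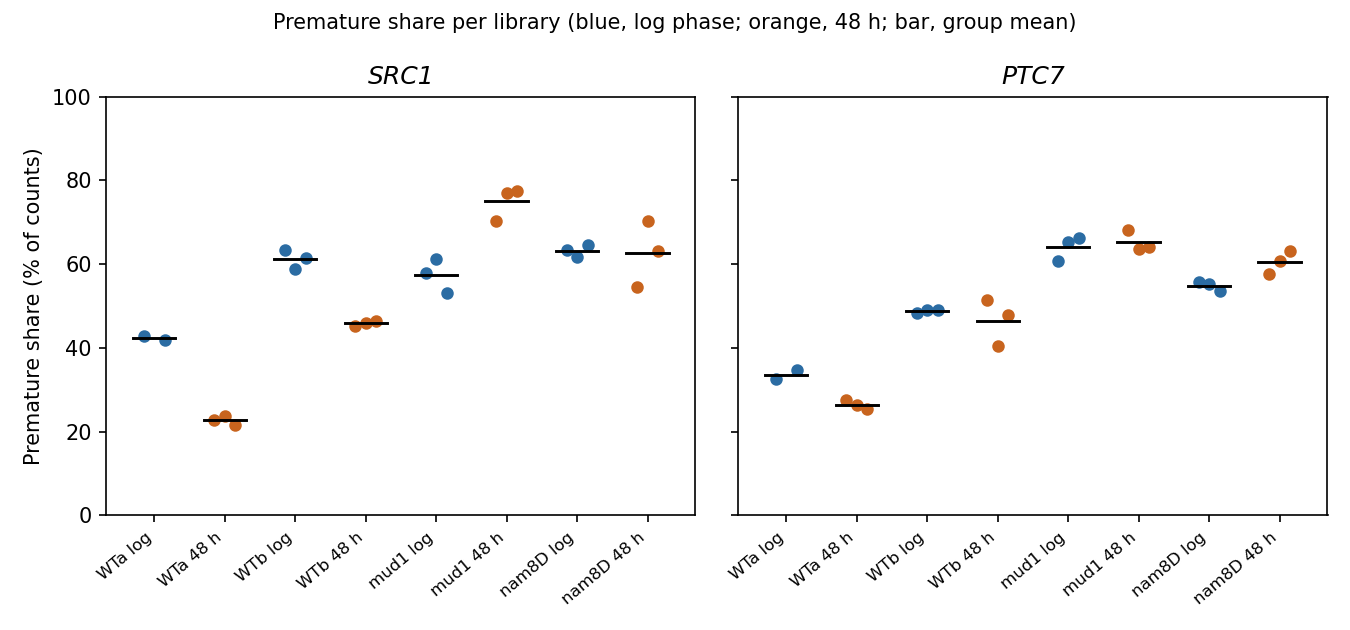
Premature share (% of counts) of SRC1 and PTC7 in each library, by group, with blue points for log phase, orange points for 48 h and a bar at the group mean. SRC1 falls from log phase to 48 h in WTa and WTb and rises in mud1, and PTC7 is higher in both mutants than in either wild-type set.

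Ordered by mean share, SRC1 ran from WTa at 48 h through WTa in log phase, WTb at 48 h and mud1 in log phase to WTb in log phase, nam8D at 48 h, nam8D in log phase and mud1 at 48 h. Of the neighbours in this order, mud1 in log phase and WTb in log phase overlapped, as did WTb in log phase and nam8D at 48 h, and nam8D in both conditions. The order of PTC7 was WTa at 48 h, WTa in log phase, WTb at 48 h, WTb in log phase, nam8D in log phase, nam8D at 48 h, mud1 in log phase and mud1 at 48 h. There the WTb conditions overlapped, as did nam8D at 48 h with mud1 in log phase and the mud1 conditions with each other.

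The ratio of premature to mature counts was tested over all 265 introns with edgeR's quasi-likelihood test and Benjamini-Hochberg adjustment, and changes are given as log2 ± SE. In wild type the SRC1 ratio fell by 1.12 ± 0.13 from log phase to 48 h (adjusted p = 3.0e-09), and that of PTC7 fell by 0.31 ± 0.11 (adjusted p = 0.00879). A fall was called for 28.7% of all tested introns, and the median intron changed by 0.29. Only 18 introns changed further downward than SRC1, against 72 for PTC7. The fall of SRC1 was called in both WTa (-1.33 ± 0.20, adjusted p = 4.7e-07, where 29.4% of introns fell) and WTb (-0.90 ± 0.18, adjusted p = 2.9e-05, where 19.6% fell). The fall of PTC7 was called in WTa (-0.49 ± 0.16, adjusted p = 0.00522; -0.43 and adjusted p = 0.0535 without WTa log-phase replicate 3) and not in WTb (-0.12 ± 0.15, adjusted p = 0.454). The responses of the sets were not called different for either gene, with WTb minus WTa at 0.43 ± 0.27 (adjusted p = 0.257) for SRC1 and 0.37 ± 0.21 (adjusted p = 0.212; 0.55 and adjusted p = 0.0428 without WTb 48 h replicate 2) for PTC7, where 24.5% of introns were called in either direction.

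In mud1 the SRC1 ratio rose by 1.16 ± 0.17 from log phase to 48 h (adjusted p = 2.1e-07), in a comparison where 64.9% of introns rose and the median change was 1.08. The change of PTC7 in mud1 was 0.07 ± 0.15 (adjusted p = 0.665). In nam8D SRC1 changed by -0.01 ± 0.17 (adjusted p = 0.949), and PTC7 rose by 0.33 ± 0.15 (adjusted p = 0.0455), where 70.9% of introns rose and the median was 1.10. The PTC7 call in nam8D was lost without any of the nam8D log-phase replicates or without 48 h replicate 2 or 3 (5 of 6 fits, 0.25 to 0.36), and also with DESeq2 (adjusted p = 0.0653). After the log2 ratio of the median intron was subtracted from every intron of a library (called centring), which takes out a change common to all introns, PTC7 instead fell by 0.69 in mud1 and by 0.77 in nam8D, and SRC1 fell by 1.13 in nam8D and rose by 0.39 in mud1 (limma).

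The difference between the mutant and wild-type responses was itself tested. For SRC1 the response to 48 h was higher by 2.28 ± 0.22 in mud1 than in wild type (adjusted p = 9.4e-11), and 10 introns had a larger difference. It was higher by 1.10 ± 0.22 in nam8D (adjusted p = 5.0e-05). For PTC7 the difference was 0.38 ± 0.19 in mud1 (adjusted p = 0.0681, though it passed at 0.45 without mud1 log-phase replicate 3 or WTb 48 h replicate 1 and at 0.56 with WTa alone as wild type) and 0.64 ± 0.19 in nam8D (adjusted p = 0.00256). A higher response was called for 65.3% of introns in mud1 and for 75.8% in nam8D, with medians of 0.72 and 0.81. With centred libraries (limma) the differences in mud1 were 1.78 for SRC1 and -0.10 (adjusted p = 0.589) for PTC7. Those in nam8D were 0.26 (adjusted p = 0.349) for SRC1 and -0.19 for PTC7. With WTb alone as wild type the PTC7 difference in nam8D was 0.46 (adjusted p = 0.0617).

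Against wild type of the same condition, PTC7 was less completely spliced in both mutants and in both conditions. In mud1 its ratio was higher by 1.37 ± 0.13 in log phase (adjusted p = 1.0e-10), where 47.9% of introns were higher and the median was 0.31, and only 10 introns had a larger change. At 48 h it was higher by 1.75 ± 0.13 (adjusted p = 8.2e-14), where 90.6% of introns were higher and the median was 1.11. In nam8D it was higher by 0.81 ± 0.13 in log phase (adjusted p = 6.5e-06; 29.4% of introns higher, median 0.17) and by 1.46 ± 0.13 at 48 h (adjusted p = 8.7e-12; 88.3% higher, median 1.01). Centred libraries kept these directions, with 0.95 and 0.85 in mud1 and 0.74 and 0.55 in nam8D. The log-phase difference in nam8D rested on WTa. It was 1.27 against WTa alone and 0.36 against WTb alone, which did not pass (adjusted p = 0.103), although all nam8D shares were above all WTb shares. The other differences passed against each set. Against WTa and WTb alone they were 1.83 and 0.91 in log-phase mud1, and 2.39 and 1.11 in mud1 at 48 h. In nam8D at 48 h they were 2.10 and 0.81. WTb was itself above WTa, by 0.91 in log phase and 1.28 at 48 h.

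SRC1 differed from wild type chiefly at 48 h, and so did the median intron. At 48 h 90.6% of introns were higher in mud1 and 88.3% in nam8D, with medians of 1.11 and 1.01. In log phase these were 47.9% and 29.4%, with medians of 0.31 and 0.17. With centred libraries SRC1 was at 1.70 in mud1 and 0.86 in nam8D at 48 h. Its centred log-phase values were -0.09 in mud1 (limma, adjusted p = 0.668) and 0.60 in nam8D (adjusted p = 0.00411). In mud1 its ratio was higher by 2.60 ± 0.15 at 48 h (adjusted p = 3.3e-17), and 3 of the 265 introns had a larger change. In nam8D it was higher by 1.77 ± 0.15 (adjusted p = 7.0e-13), with 32 introns above it. Both held against each wild-type set, with 3.37 and 1.83 in mud1 and 2.54 and 1.01 in nam8D against WTa and WTb alone. In log phase the mud1 difference was 0.32 ± 0.16 and did not pass (adjusted p = 0.0910), and it depended on the wild-type set, at 0.88 against WTa (adjusted p = 0.000339) and -0.23 against WTb (adjusted p = 0.363). It did pass in a fit of the compared groups alone (0.32, adjusted p = 0.0312) and without mud1 log-phase replicate 3 (0.45). The log-phase difference in nam8D was 0.67 ± 0.16 (adjusted p = 0.00132), but 0.12 against WTb alone (adjusted p = 0.702).

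The mutants also differed from each other, PTC7 in log phase and SRC1 at 48 h. In log phase PTC7 was lower in nam8D than in mud1 by a log2 ratio of -0.56 ± 0.14 (adjusted p = 0.00278), where 25.3% of introns were lower, and SRC1 was at 0.35 ± 0.18 (adjusted p = 0.133). At 48 h SRC1 was lower in nam8D by -0.83 ± 0.16 (adjusted p = 0.000243), where 17.7% were lower and only 3 introns had a more negative change, and PTC7 was at -0.29 ± 0.16 (adjusted p = 0.176). With centred libraries the log-phase values were 0.69 for SRC1, which then passed, and -0.21 for PTC7, which no longer did. The wild-type sets differed as well. WTb was above WTa by 1.10 ± 0.20 for SRC1 and 0.91 ± 0.16 for PTC7 in log phase (adjusted p = 3.9e-05 and 1.6e-05), and by 1.53 ± 0.17 and 1.28 ± 0.14 at 48 h (adjusted p = 4.9e-09 and 4.3e-09). Between 8 and 19 introns had a larger difference between the sets than these.

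The centred values of SRC1 and PTC7 stand against another background, which is given here from the same limma test with and without centring. From log phase to 48 h centring moved the introns called higher and lower from 136 and 77 to 113 and 103 in wild type, from 172 and 41 to 133 and 97 in mud1, and from 191 and 28 to 102 and 107 in nam8D. Against wild type they moved from 122 and 21 to 57 and 94 in mud1 in log phase, and from 238 and 3 to 118 and 59 at 48 h. In nam8D they moved from 81 and 22 to 77 and 36 in log phase, and from 234 and 3 to 102 and 79 at 48 h. For the response they moved from 177 and 12 to 106 and 48 in mud1, and from 201 and 7 to 49 and 61 in nam8D. For nam8D against mud1 they moved from 26 and 63 to 119 and 33 in log phase, and from 26 and 38 to 30 and 56 at 48 h.

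**Figure D3:**
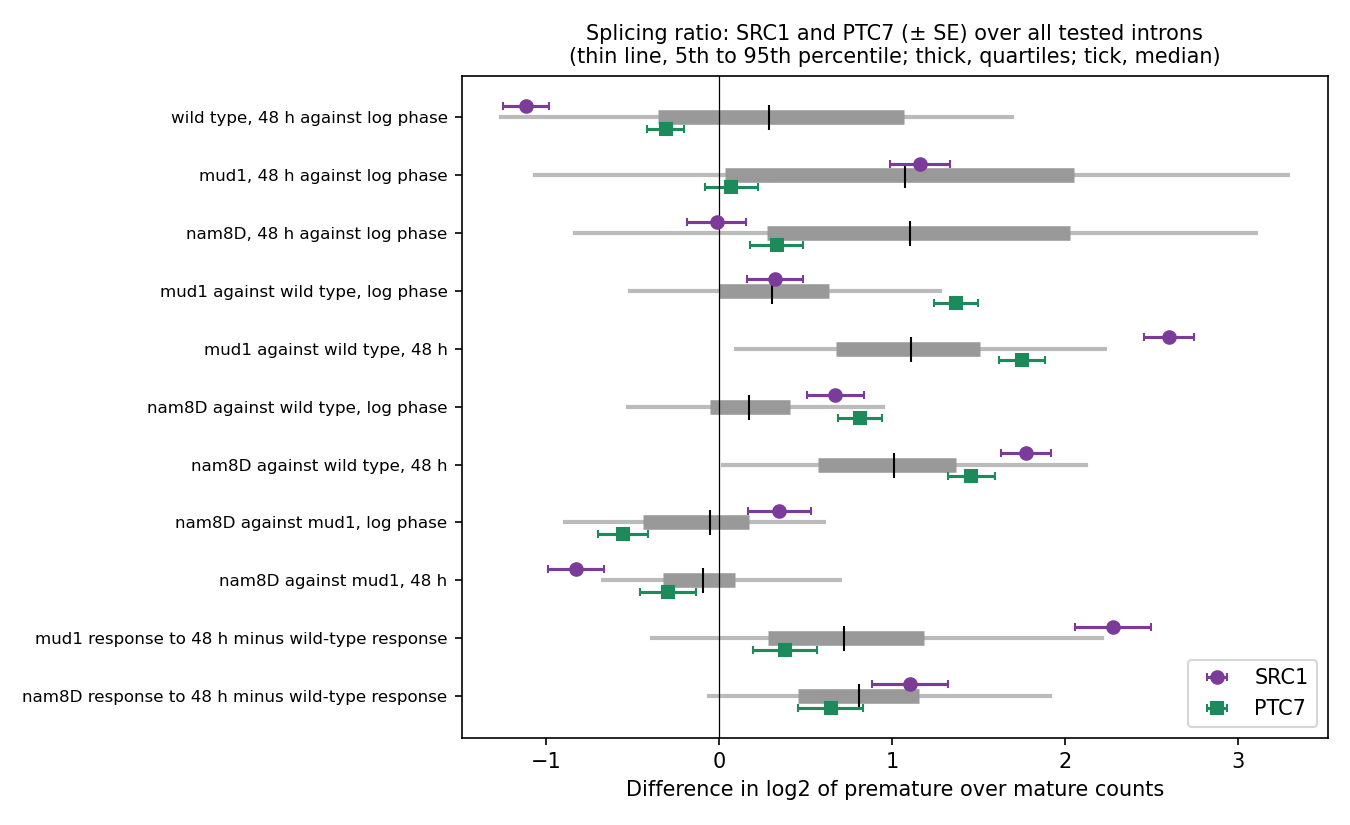
Difference in log2 of premature over mature counts (horizontal axis) for SRC1 and PTC7 with SE bars in each comparison, over the distribution of all 265 tested introns (thin line, 5th to 95th percentile; thick line, quartiles; tick, median). SRC1 in mud1 against wild type at 48 h (2.60) lies beyond most introns, as does PTC7 in mud1 against wild type in log phase (1.37).

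A share can change through the spliced RNA, the unspliced RNA or both, so the levels of each were compared as CPM, the counts per 1000000 counts of the library. These levels are relative to the other primed targets, and fewer cells with the RNA or less RNA per cell cannot be told apart in bulk samples. Spliced SRC1 RNA rose from log phase to 48 h in each strain. In wild type it was 51.8 and 53.0 CPM (WTa) and 42.9, 45.0 and 42.6 CPM (WTb) in log phase, and 212, 205 and 216 CPM (WTa) and 162, 187 and 161 CPM (WTb) at 48 h. In mud1 it went from 50.8, 44.7 and 56.8 CPM to 269, 254 and 245 CPM, and in nam8D from 48.6, 48.1 and 47.6 CPM to 183, 192 and 205 CPM. No 48 h library overlapped a log-phase library, and the ratios of the means were 4.02 in WTa, 3.90 in WTb, 5.05 in mud1 and 4.01 in nam8D.

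Unspliced SRC1 RNA set the strains apart. In wild type it was 38.9 and 38.1 CPM (WTa) and 74.4, 64.1 and 68.2 CPM (WTb) in log phase, and 62.7, 63.6 and 58.9 CPM (WTa) and 133, 159 and 139 CPM (WTb) at 48 h. In mud1 it went from 69.8, 70.3 and 64.4 CPM to 636, 852 and 845 CPM. In nam8D it went from 83.6, 77.4 and 86.9 CPM to 218, 453 and 351 CPM. The ratios of the 48 h mean to the log-phase mean were 1.60 in WTa, 2.09 in WTb, 11.4 in mud1 and 4.12 in nam8D. At 48 h every mutant library was above every wild-type library, and the mud1 mean of 778 ± 122 CPM (SD, n = 3) was 12.6 times that of WTa and 5.41 times that of WTb. Spliced and unspliced SRC1 RNA together reached 1034 CPM in mud1 at 48 h, against 534 in nam8D, 314 in WTb and 272 in WTa.

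The level test, edgeR's quasi-likelihood test over spliced and unspliced counts with TMM scaling, gave log2 rises of spliced SRC1 at 48 h of 1.74 ± 0.08 in wild type (adjusted p = 1.1e-17), 2.04 ± 0.10 in mud1 (1.9e-16) and 1.76 ± 0.10 in nam8D (5.8e-15). Spliced levels rose for 50.2%, 46.4% and 43.0% of introns in these comparisons. Unspliced SRC1 rose by 0.62 ± 0.13 in wild type (adjusted p = 8.4e-05), 3.22 ± 0.17 in mud1 (1.4e-15) and 1.80 ± 0.17 in nam8D (1.2e-10), where 75.8%, 88.3% and 88.7% of introns rose, with medians of 0.67, 1.34 and 1.34. Against wild type at 48 h, unspliced SRC1 was higher by 3.02 ± 0.14 in mud1 (adjusted p = 2.8e-16; 89.1% of introns higher) and by 1.85 ± 0.14 in nam8D (4.1e-12; 80.8% higher). Spliced SRC1 was then higher by 0.41 ± 0.08 in mud1 (adjusted p = 5.7e-05; 26.8% of introns higher), and at 0.03 ± 0.08 in nam8D (adjusted p = 0.783). In log phase spliced SRC1 was at 0.10 ± 0.09 in mud1 (adjusted p = 0.388) and -0.00012 ± 0.092 in nam8D (adjusted p = 0.999). Unspliced SRC1 was then higher by 0.42 ± 0.15 in mud1 (adjusted p = 0.0260; 46.0% higher) and by 0.67 ± 0.15 in nam8D (9.4e-04; 35.1% higher), but against WTb alone the values were -0.04 and 0.21, which did not pass. The mud1 value also did not pass without either WTa log-phase library, without WTb log-phase replicate 2, or without mud1 log-phase replicate 1 or 2 (0.33 to 0.42). TMM factors taken from introns outside ribosomal protein genes moved the median spliced change in wild type from 0.16 to -0.78. Under them the unspliced SRC1 change in wild type turned to -0.32, while the rises of spliced SRC1 shrank to 0.79 in wild type, 1.09 in mud1 and 1.15 in nam8D and those of unspliced SRC1 to 2.29 in mud1 and 1.19 in nam8D, all of which still passed.

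Spliced PTC7 RNA was lower in the mutants, most of all at 48 h. In wild type it was 91.5 and 88.7 CPM (WTa) and 50.0, 50.2 and 58.3 CPM (WTb) in log phase, and 142, 152 and 153 CPM (WTa) and 87.1, 97.8 and 93.1 CPM (WTb) at 48 h. In mud1 it was 45.6, 44.4 and 45.8 CPM in log phase and 48.3, 58.9 and 50.7 CPM at 48 h, and in nam8D 52.6, 57.2 and 48.3 CPM and then 42.0, 44.4 and 45.8 CPM. At 48 h all mutant libraries lay below all wild-type libraries, and the mutant means were 0.435 (mud1) and 0.365 (nam8D) of the wild-type mean. The ratio of the 48 h mean to the log-phase mean was 1.66 in WTa, 1.75 in WTb, 1.16 in mud1 and 0.836 in nam8D.

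Unspliced PTC7 RNA varied less. In wild type it was 44.1 and 46.9 CPM (WTa) and 46.6, 48.1 and 56.0 CPM (WTb) in log phase, and 53.9, 54.2 and 52.1 CPM (WTa) and 92.1, 66.1 and 85.1 CPM (WTb) at 48 h. In mud1 it was 70.5, 83.3 and 89.9 CPM in log phase and 103, 103 and 90.3 CPM at 48 h. In nam8D it was 66.3, 70.5 and 55.8 CPM in log phase and 57.1, 68.5 and 78.4 CPM at 48 h. At 48 h both mutants overlapped the wild-type range, and in log phase the mud1 libraries were above it.

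In the level test, spliced PTC7 rose by a log2 change of 0.52 ± 0.08 from log phase to 48 h in wild type (adjusted p = 5.9e-07; 50.2% of introns rose) and fell by 0.50 ± 0.11 in nam8D (adjusted p = 1.3e-04; 44.5% of introns fell). It was at -0.07 ± 0.11 in mud1 (adjusted p = 0.529). Against wild type at 48 h it was lower by -1.19 ± 0.10 in mud1 (adjusted p = 3.0e-11; 52.5% of introns lower) and by -1.42 ± 0.10 in nam8D (1.2e-12; 49.1% lower), and both held against either wild-type set. In log phase it was lower by -0.59 ± 0.10 in mud1 (adjusted p = 1.4e-05; 26.8% lower) and by -0.40 ± 0.09 in nam8D (0.00147; 18.9% lower), but against WTb alone these were -0.25 and -0.05, which did not pass. Unspliced PTC7 was higher than wild type in mud1, by 0.78 ± 0.12 in log phase (adjusted p = 6.2e-06) and 0.56 ± 0.12 at 48 h (9.7e-05; 0.27 against WTb alone, which did not pass), and in nam8D by 0.42 ± 0.12 in log phase (0.00690; 0.31 against WTb alone and 0.33 without nam8D log-phase replicate 2, which did not pass). Unspliced levels were higher for 46.0%, 89.1% and 35.1% of introns in these comparisons, with medians of 0.275, 0.89 and 0.19. In mud1 at 48 h PTC7 was thus below the median intron. Unspliced PTC7 was at 0.04 ± 0.12 in nam8D at 48 h (adjusted p = 0.751). From log phase to 48 h it was at 0.21 ± 0.10 in wild type (adjusted p = 0.0534; it passed at 0.24 without WTb log-phase replicate 3), -0.01 ± 0.13 in mud1 (0.942) and -0.16 ± 0.14 in nam8D (0.253). With TMM factors from introns outside ribosomal protein genes, the spliced PTC7 change in wild type turned to -0.42.

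**Figure D4:**
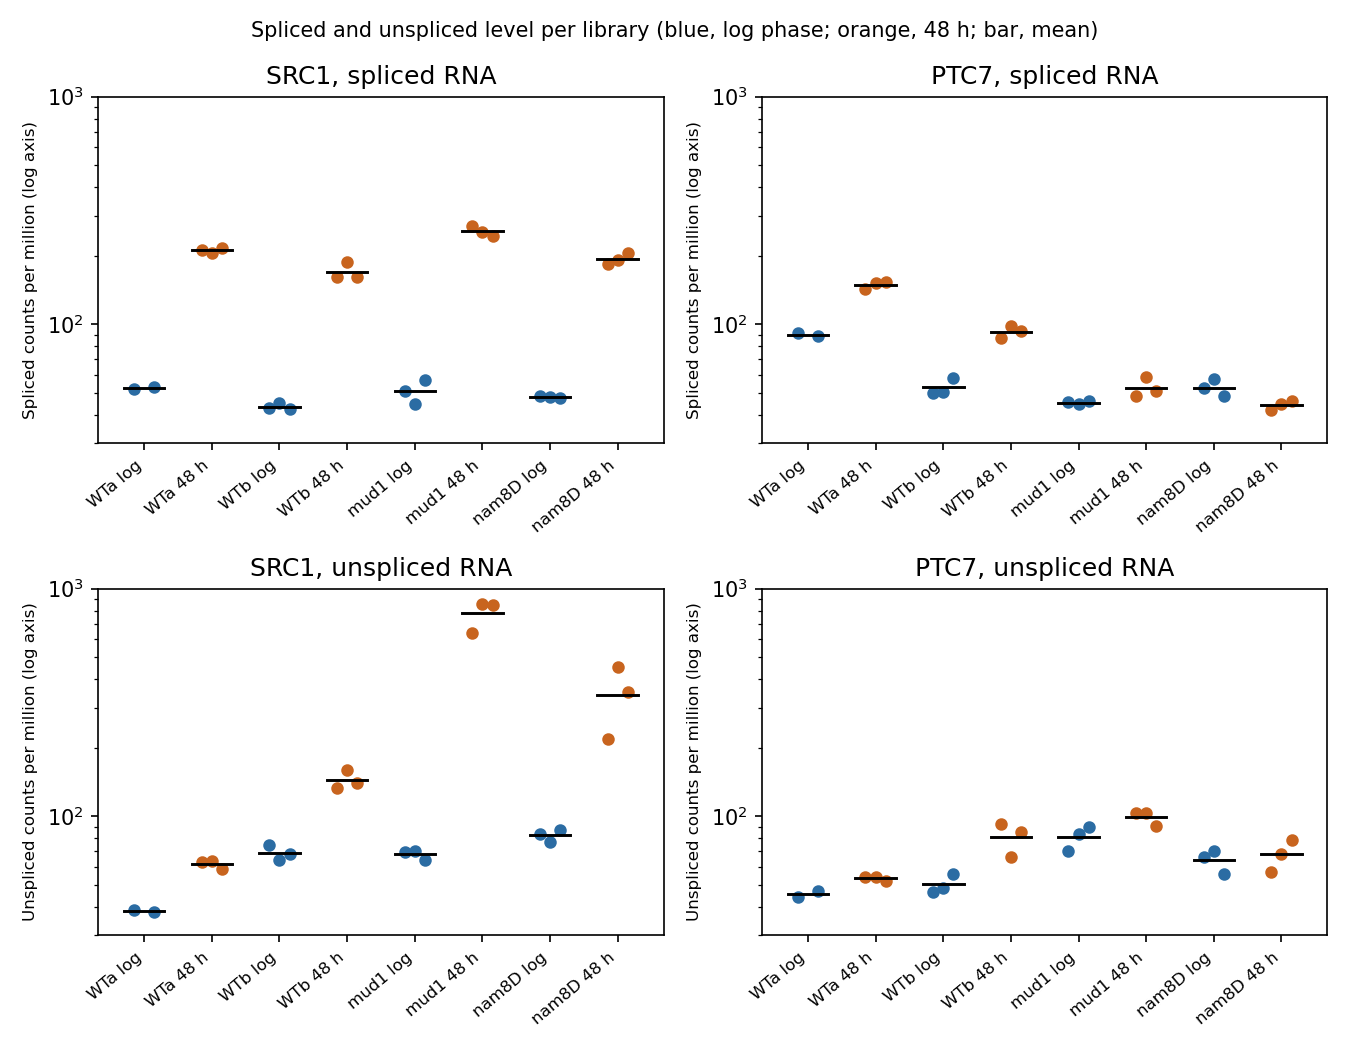
Spliced and unspliced level (CPM, log axis) of SRC1 and PTC7 in each library, with blue for log phase, orange for 48 h and a bar at the group mean. Unspliced SRC1 in mud1 at 48 h (636 to 852 CPM) is far above the other groups, and spliced PTC7 at 48 h is lower in both mutants (42.0 to 58.9 CPM) than in wild type (87.1 to 153 CPM).

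Other introns in genes with documented alternative or regulated splicing did not share a single direction. The list held 11 such introns in 10 measured genes chosen by name, besides SRC1 and PTC7. From log phase to 48 h in wild type, 6 rose and 5 fell in ratio, with a median of 0.43. Over all introns 51.7% rose and 28.7% fell. The smallest p-values of the list were those of RPL22B, whose protein product is known to inhibit its own splicing, which rose by 3.83 ± 0.12 (adjusted p = 1.0e-24), and of DBP2, an RNA helicase, which rose by 2.99 ± 0.13 (adjusted p = 2.8e-20). At 48 h 10 of the 11 were higher and 1 was lower in mud1 than in wild type (median 1.18), and 9 were higher and 1 lower in nam8D (median 1.27). In log phase 4 were higher and 1 lower in mud1 (47.9% and 7.92% over all introns), and 5 higher and 0 lower in nam8D (29.4% and 7.17%). The 48 introns other than SRC1 whose first 6 bases are not GTATGT had 27 rises and 16 falls in wild type, 44 higher and 2 lower ratios in mud1 at 48 h, and 42 higher and 1 lower in nam8D at 48 h. The smallest p-values in that list in wild type were those of RPL22B and of GCR1, an activator of glycolytic genes, which fell by 2.67 ± 0.12 (adjusted p = 2.2e-19). GCR1 is also among the 11, and HAC1, which is spliced outside the spliceosome, is in both lists. These shares of higher ratios at 48 h lie near those over all introns, 90.6% in mud1 and 88.3% in nam8D.

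Of the other phosphatase genes with an intron, GLC7 encodes the catalytic subunit of type 1 phosphatase and CNB1 the regulatory subunit of calcineurin. In pooled wild type GLC7 changed by -0.18 ± 0.09 from log phase to 48 h (adjusted p = 0.0833) and CNB1 by 0.16 ± 0.10 (adjusted p = 0.141). The sets differed for GLC7, which changed by -0.52 ± 0.14 in WTa (adjusted p = 0.00126) and 0.17 ± 0.12 in WTb (adjusted p = 0.228). These responses were called different, with WTb minus WTa at 0.69 ± 0.19 (adjusted p = 0.00539), where 24.5% of introns were called in either direction. At 48 h GLC7 was higher by 1.57 ± 0.11 in mud1 and 1.24 ± 0.11 in nam8D than in wild type (adjusted p = 8.5e-15 and 1.9e-12), and CNB1 by 1.02 ± 0.12 and 1.11 ± 0.12 (7.5e-10 and 1.3e-10). Higher ratios were called there for 90.6% of introns in mud1 and 88.3% in nam8D, with medians of 1.11 and 1.01. Between the wild-type sets at 48 h, WTb was above WTa by 1.52 ± 0.12 for GLC7 (adjusted p = 5.2e-12; 51.3% of introns higher). For CNB1 it was lower, at -0.32 ± 0.13 (adjusted p = 0.0429; 5.66% lower). PTC7 was higher than GLC7 and CNB1 in each mutant against wild type at 48 h, at 1.75 and 1.46, a difference between introns that was not tested. In log phase GLC7 was higher in mud1 and nam8D than in pooled wild type (0.54 and 0.44; 47.9% and 29.4% of introns higher), and CNB1 in neither. But GLC7 was also higher in WTb than in WTa in log phase, by 0.83 ± 0.14 (adjusted p = 1.3e-05), which is more than either mutant difference. Values against WTb alone are not given for GLC7.

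The list for mitochondrial respiration and coenzyme Q held 5 introns chosen by name (QCR9, QCR10, COX5B, CQD1 and COI1). It does not cover every such gene measured, as COX4 was tested but not listed. All 5 fell in wild type at 48 h, with a median of -1.07. Of all tested introns 28.7% fell, and the median was 0.29. QCR10 and QCR9, subunits of the cytochrome bc1 complex, fell by 1.28 ± 0.09 and 0.96 ± 0.09 (adjusted p = 3.2e-15 and 3.6e-12), further than PTC7. In mud1 and in nam8D 4 of the 5 fell and 1 rose, where 15.5% and 9.81% of all introns fell, while against wild type at 48 h 4 were higher and 0 lower in mud1, and 4 higher and 1 lower in nam8D. The nuclear pore and mRNA export list held 5 introns of genes chosen by name (DYN2, SUS1, MTR2 and YRA1). The tested introns of NSP1 and HRB1 were not on it. Of the 5 listed, 2 rose and 3 fell in wild type. There the second intron of DYN2, a dynein light chain also found in the nuclear pore, fell by 0.69 ± 0.08 (adjusted p = 4.0e-09), and the second of SUS1, of the SAGA and export complexes, fell by 0.57 ± 0.10 (adjusted p = 4.9e-06). All 5 were higher in each mutant than in wild type at 48 h, as were 90.6% of all introns in mud1 and 88.3% in nam8D.

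The introns whose splicing ratio followed each gene most closely over the 8 group means were described by Pearson's r, which shares the same libraries throughout. For SRC1 these were URA2, of pyrimidine synthesis (r = 0.933), PBA1, a proteasome assembly chaperone (0.929), and NBL1, of the chromosomal passenger complex (0.918), and the median intron had r = 0.426. PTC7 came 6th for SRC1, at 0.903. For PTC7 they were TAF14, a subunit of several transcription complexes (r = 0.985), PBA1 (0.982) and YCL012C (0.968), against a median of 0.477, and SRC1 came 19th. With libraries centred on their median intron the leading introns of SRC1 were GLC7 (0.914), LSB3 (0.888) and PBA1 (0.884). Those of PTC7 were then PBA1 (0.945), YCL012C (0.940) and the second intron of YOS1 (0.923), while PTC7 and SRC1 followed each other at 0.858.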

How the data were processed

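Multiplexed primer extension sequencing of total RNA gave 23 libraries. The authors deposited mature and premature counts per intron, whole numbers that are not normalized, as the column headers and values show. The submitters' processing notes list build R64, STAR 2.7.2b, fastp 0.20.0 and FastQC without a role. The sources used here do not give how reads were assigned or whether molecular identifiers were counted.

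Of 284 introns, 265 were listed in all libraries with a mean of at least 20 counts. Symbols were found for all 284 in the R64 annotation, and 240 corresponded to a single annotated intron. Groups came from the labels. The mutant is called mud1 because its label (mud1D) and the suffix in its table differ. Replicates of a group differed by a chi-square of at least 12.0 per degree of freedom, so none was a copy.

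Tests used edgeR 4.0.16 (R 4.3.3), two-sided, threshold 0.05. For the ratio, the premature and the mature count of a library were fitted together, with terms for library and for group. Spliced and unspliced levels were separate features with TMM factors. In the tests, pooled wild type is the mean of both sets; printed pooled means and SDs are over its libraries. The SE is the change divided by the root of F. Both steps were tested on simulated data. Alternatives used DESeq2 1.42.0 and limma 3.58.1 (log2 odds, pseudocount 0.5 or 5). Other work used Python 3.11.15 and pandas 2.3.3. Both genes, the gene lists and the tests were chosen with earlier results of these data known. The rule named both genes, the 3 introns most like each, and the 2 smallest p-values of each list in wild type. Comparing WTa with WTb, and counting uncentred limma calls, were added after seeing the data.

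Replicate numbers did not pair the libraries. Of the pairs of groups, 1 (mud1 in log phase with WTb at 48 h) had every same-numbered correlation of deviations over 0.1.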

Additional observations from a re-analysis of the deposited data

Results flagged for a closer look

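The mutants' responses to 48 h differed from that of wild type in the interaction test of edgeR's quasi-likelihood fit, with Benjamini-Hochberg adjustment over 265 introns. For SRC1 the difference in log2 premature over mature was 2.28 in mud1 (adjusted p = 9.4e-11) and 1.10 in nam8D (adjusted p = 5.0e-05). For PTC7 it was 0.64 in nam8D (adjusted p = 0.00256). Higher responses were called for 65.3% of introns in mud1 and 75.8% in nam8D, with medians of 0.72 and 0.81. In nam8D 166 introns had a larger difference than PTC7, which lay below the median, and 74 a larger one than SRC1. With centred libraries (limma) the SRC1 differences were 1.78 in mud1 (adjusted p = 7.2e-07) and 0.26 in nam8D (adjusted p = 0.349). That of PTC7 in nam8D was -0.19 (adjusted p = 0.360). No library of SRC1 or PTC7 stood apart within pooled wild type by Dixon's test, and groups of 3 were not tested. The pooled range includes the difference between WTa and WTb, so that test cannot show whether a library deviates within its own set.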

How the results depend on the processing

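Values are log2 changes. The ratio results of SRC1 and PTC7 at 48 h in each mutant against wild type, and of SRC1 in wild type and in mud1 over time, kept direction and call under each alternative run. Centring each library on its median intron gave PTC7 -0.69 in mud1 and -0.77 in nam8D over time, and -0.19 for its nam8D response. It gave SRC1 -1.13 in nam8D over time and 0.26 for its nam8D response, and for nam8D against mud1 in log phase 0.69 (SRC1) and -0.21 (PTC7). Ratio calls for nam8D against mud1 in log phase were 96 in edgeR, 89 in limma and 152 in limma with centring, and for the nam8D response 209, 208 and 110. With WTa alone SRC1 in mud1 against log-phase wild type was 0.88, the PTC7 mud1 response 0.56 and unspliced PTC7 in nam8D at 48 h 0.33. With WTb alone the ratio values were -0.12 (PTC7 over time in wild type), 0.36 and 0.12 (PTC7 and SRC1 in log-phase nam8D) and 0.46 (PTC7 nam8D response). The level values with WTb alone were 0.39 (unspliced PTC7 over time), -0.25 and -0.052 (spliced PTC7 in log-phase mud1 and nam8D), -0.041 and 0.21 (unspliced SRC1 in log-phase mud1 and nam8D), 0.27 (unspliced PTC7 in mud1 at 48 h) and 0.31 (unspliced PTC7 in log-phase nam8D). PTC7 over time in nam8D was 0.33 with DESeq2 and also in a fit of the compared groups, where SRC1 in log-phase mud1 was 0.32. RLE factors and DESeq2 gave spliced PTC7 -0.26 in mud1 and unspliced PTC7 -0.32 in nam8D over time. Library totals gave unspliced PTC7 0.46 in wild type and 0.28 in mud1. TMM factors without ribosomal protein introns gave, over time in wild type, -0.42 (spliced PTC7), -0.73 (unspliced PTC7) and -0.32 (unspliced SRC1). They gave -1.02 and -0.96 for spliced and unspliced PTC7 in mud1 and -0.78 for unspliced PTC7 in nam8D over time. Against wild type they gave 0.35 (unspliced SRC1, log-phase mud1), 0.29 (unspliced PTC7, log-phase nam8D) and 0.23 (spliced SRC1, nam8D at 48 h).

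Leaving out 1 library at a time gave 0.21 to 0.45 for the SRC1 ratio in log-phase mud1, 0.28 to 0.45 for the PTC7 mud1 response and 0.25 to 0.42 for PTC7 over time in nam8D. It gave 0.33 to 0.46 for unspliced SRC1 in log-phase mud1, 0.11 to 0.24 for unspliced PTC7 over time in wild type and 0.33 to 0.52 for unspliced PTC7 in log-phase nam8D. Without 1 WTa log-phase library the lone one left is assumed to vary like the other groups. The cause of these changes was not tested.

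The replicate block changed no call of SRC1 or PTC7 (SRC1 in wild type over time -1.08, PTC7 in nam8D over time 0.33), and no count of calls by over 1.5 times. The filter without a minimum kept the same 265 introns. Depth limits a single premature share to the interval widths given for each gene, and levels rest on the scaling of the primed targets.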
